A study of Drosophila melanogaster with 16 samples.

Results

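The comparison concerned the sweet taste cells of flies kept for 3 days on a high-sugar diet. Its members were the libraries that the labels give as the Gr5a fraction after 3 days of sugar diet (SD3, 2 libraries) and their control, the Gr5a fraction after 7 days of control diet (CD7, 3 libraries), 5 of the 16 libraries of the series. In translating mRNA affinity purification (TRAP), a tagged ribosomal protein is made in 1 kind of cell, the ribosomes are pulled down by the tag, and the RNA that comes with them is sequenced. All flies in both groups, SD3 and CD7, were adult Drosophila melanogaster males of the genotype Gr5a>UAS-Rpl3-3XFLAG, so that the driver of the sweet receptor gene Gr5a placed FLAG-tagged RpL3 in the cells where that driver is active. The sugar diet held 30% sucrose and the control diet 5%. Each replicate was a pool of 300 heads, given by the labels as a biological replicate, so p-values measure the spread between pools. Males collected 2 days after eclosion were moved to their diet at day 5 and kept until day 12 per the labels. No separate age is given there for SD3, whose flies the study calls age-matched to the controls. The groups therefore differ in the diet and in the days counted on it, 3 against 7, and these cannot be told apart. The other 6 libraries of the Gr5a fraction, from 7 days of sugar (SD7, 2 libraries), 14 days of control diet (CD>CD, 2 libraries) and sugar followed by control (SD>CD, 2 libraries by a condition label that their titles contradict), carry the same genotype and entered the fit as a source of the spread.

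Sweet-sensing neurons of the fly sit in bristles of the mouthparts and legs. They respond to sugars through receptors of the Gr family, Gr5a, Gr61a and the Gr64 genes among them, and send axons to the brain, where their firing promotes feeding. Diets rich in sugar are known to lower the response of these neurons to sweet taste. The same diets act on the fat body, the storage organ of the fly and the site where lipoproteins and larval storage proteins are made, and on the midgut, where secreted amylases, maltases and serine proteases digest food. A head holds fat body and no midgut.

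Gene counts were 30539202 and 36981259 in the SD3 libraries, against 38811925, 48319480 and 37460422 in the CD7 libraries, and 12605 and 12648 genes had 10 or more counts in SD3, against 12866, 13386 and 12994 in CD7. No pair of libraries was a repeat of the other, with a chi-square per degree of freedom of 51.1 between the SD3 libraries. Between CD7 libraries it was 55.1 for replicates 1 and 3, 224 for replicates 1 and 2, and 275 for replicates 2 and 3. Levels are given as CPM, the count scaled to the library total after a correction for library composition, and are compared within a gene only. Gr5a itself had 3.05 and 3.91 CPM in SD3, against 3.48, 2.06 and 2.78 CPM in CD7, and 0.211, 0.410 and 0.253 CPM in the whole-lysate input of CD7, so the marker of the target cells was above the input in all 5 libraries. Gr64f, a co-receptor for sugars, had 4.44 and 8.12 CPM in SD3, against 5.39, 3.90 and 4.51 CPM in CD7, and at most 0.506 CPM in the input. The pull-down also held RNA of other head cells, and their markers are given beside the results that they move with. In such bulk samples, fewer cells of a type and less RNA per cell cannot be told apart. The deposited identifiers of the libraries run in 1 series for the day-7 groups and in another for SD3 and the 14-day groups, and no label says what the series stand for, so whatever goes with them and the diet cannot be told apart between SD3 and CD7.

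Only 6 genes passed the threshold, and all of them were lower after 3 days of sugar: the yolk protein genes Yp1, Yp2 and Yp3, the digestive protease gene Jon99Ciii, the malic enzyme gene Men-b and the predicted sugar transporter gene CG1208. They were 0.0436% of the 13758 genes tested, by edgeR's quasi-likelihood test over the 11 libraries of the Gr5a fraction with Benjamini-Hochberg adjusted p under 0.1. At an unadjusted p under 0.05, 2011 genes or 14.6% differed, 1266 lower (9.2%) and 745 higher (5.42%). That split turned to 829 lower and 1354 higher with no filter on low counts, to 808 and 990 with at least 10 counts asked of each library, to 690 and 901 without the SD>CD libraries, to 1063 and 1419 without the CD>CD libraries, and to 1051 and 1075 in a fit on the 5 libraries alone. Of all tested genes 7930 had a fold change below 0 and 5827 above it, with a median of -0.08 on the log2 scale (SD3 over CD7, as for every log2 fold change below). Among the 8760 genes averaging 5 CPM or more, 1996 were lower and 1799 higher with no overlap between the SD3 and CD7 libraries, so such separation was common.

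**Figure D1:**
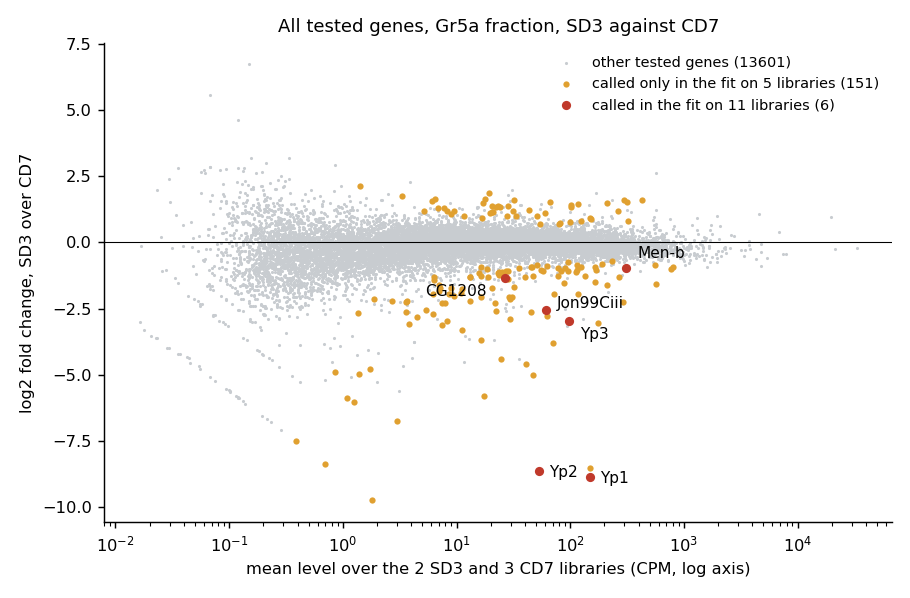
Log2 fold change of SD3 over CD7 (vertical axis) against the mean level over the 5 libraries in CPM (horizontal log axis) for each tested gene. The 6 genes called in the fit on 11 libraries all lie below 0, and the 157 genes called in the fit on the 5 libraries alone, these 6 among them, lie on both sides, 110 below and 47 above.

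The count of calls differed with the libraries in the fit, and the cause was not tested. In a fit on the 5 libraries alone 157 genes, 1.19% of 13237, passed the same threshold, 110 lower and 47 higher. All 157 kept their sign in the fit on 11 libraries, 136 of them had an unadjusted p under 0.05 there, and 102 were also called by DESeq2, which called 478 genes (3.47%), 323 of them lower. Leaving out a library of either group brought the count of the 11-library fit to 0 (SD3 replicate 1, SD3 replicate 2, CD7 replicate 1 or CD7 replicate 2) or 3 (CD7 replicate 3), and the 2011 genes at an unadjusted p under 0.05 became 617 without SD3 replicate 2 and 1015 without CD7 replicate 2. Without the SD>CD libraries, which had the fewest genes above 10 counts, no gene was called either (1591 genes at an unadjusted p under 0.05), and without the CD>CD libraries 76 were.

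Yolk proteins gave the largest differences among the genes called. They are made by the fat body and the ovarian follicle cells of females and are held at low levels in males. Yp1 (FBgn0004045) had 0.193 and 0.802 CPM in SD3, from 6 and 32 counts, against 272, 185 and 284 CPM in CD7, from 10532, 9067 and 10327 counts. Every CD7 library was thus at least 2 orders of magnitude above either SD3 library, and the fold change was -8.87 (SE 1.09, edgeR adjusted p = 0.0668). Yp2 (FBgn0005391, X:10050951-10052636, minus strand) lies beside Yp1 and had 0.386 and 0.0752 CPM in SD3, from 12 and 3 counts, against 89.5, 65.2 and 109 CPM in CD7, a fold change of -8.65 (SE 1.11, edgeR adjusted p = 0.0668). Yp3 (FBgn0004047, X:13759546-13761547, plus strand) kept more of its level, with 18.9 and 20.1 CPM in SD3, against 179, 108 and 165 CPM in CD7, a fold change of -2.95 (SE 0.40, edgeR adjusted p = 0.0668). Yolk protein RNA was also in the input of CD7, where the 3 genes summed to 1154, 423 and 851 CPM, against 540, 364 and 542 CPM in the Gr5a fraction of CD7.

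Eggshell genes, which also mark females, ran the other way at levels near 0. Of the 10 eggshell genes listed, made by follicle cells of the ovary, 5 passed the filter and none had an unadjusted p under 0.05, and the summed level of all 10 was 1.18 and 0.946 CPM in SD3, against 0.438, 0.828 and 0.854 CPM in CD7. The male-specific RNAs of the X chromosome were present in every library, with roX1 at 1152 and 1261 CPM in SD3, against 1782, 2666 and 1649 CPM in CD7, and roX2 at 59.1 and 75.5 CPM in SD3, against 109, 116 and 89.3 CPM in CD7 (fold changes -0.75 and -0.64, edgeR adjusted p = 0.308 and 0.306). msl-2, the gene of the male dosage compensation complex, had 67.3 and 56.8 CPM in SD3, against 62.3, 67.4 and 58.7 CPM in CD7, and the groups overlapped. The sex-determination gene doublesex (dsx), whose male product represses Yp1 and Yp2, had 59.98 and 54.1 CPM in SD3, against 116, 146 and 98.1 CPM in CD7, a fold change of -1.07 (edgeR adjusted p = 0.306 over 11 libraries and 0.0549 over 5), and was chosen after its values were seen. The levels of the yolk proteins in SD7 and CD>CD lay between those of SD3 and CD7, with Yp1 at 76.5 and 9.39 CPM in SD7 and at 3.90 and 1.42 CPM in CD>CD, whose flies never had the sugar diet.

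**Figure D2:**
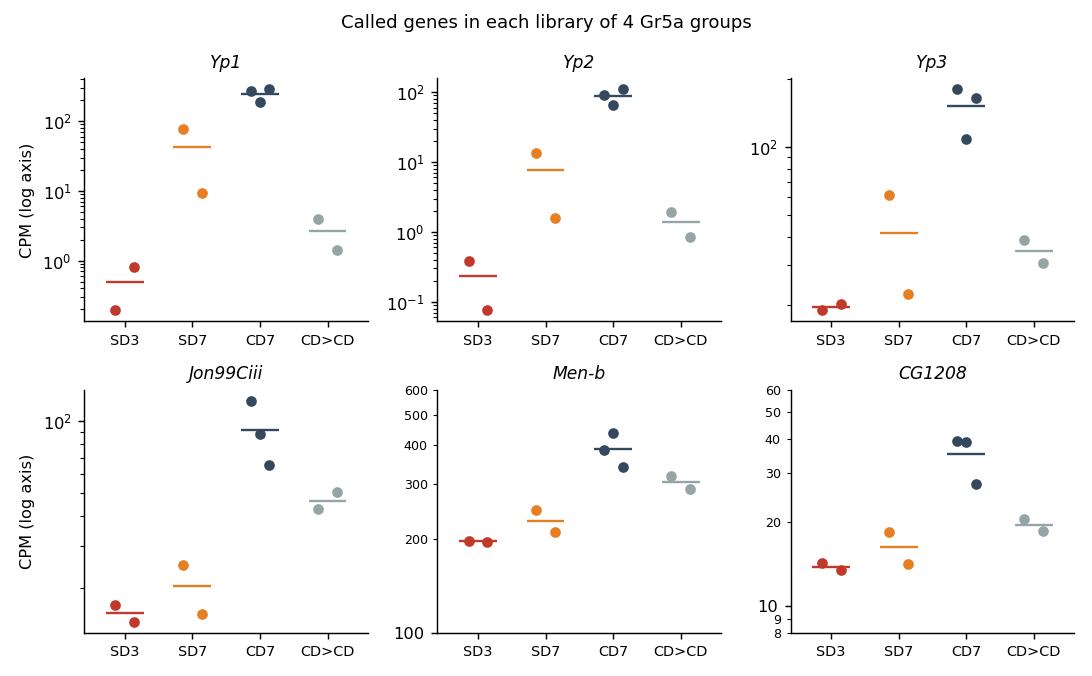
Level in CPM (log axis) of the 6 called genes in each library of SD3, SD7, CD7 and CD>CD, 1 point a library, with a line at the mean of each group. For each gene both SD3 points lie below all 3 CD7 points, and for Yp1 and Yp2 the CD>CD points lie between the SD3 and the CD7 points.

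Of the digestive enzymes, 16 of the 36 tested members had an unadjusted p under 0.05, all lower, beside 9.2% of all tested genes in that direction, and the median fold change was -1.06 (-0.66 with unstranded counts). In the 11-library fit Jon99Ciii alone was called, and 9 were called in the 5-library fit. Jon99Ciii (FBgn0003357, 3R:29922216-29923455, plus strand), a chymotrypsin-like protease of the Jonah family, had 16.9 and 14.4 CPM in SD3, against 121, 88.5 and 65.4 CPM in CD7, a fold change of -2.55 (SE 0.30, edgeR adjusted p = 0.0668). Its close paralogs Jon99Ci and Jon99Cii had 5.24 and 7.84 CPM and 7.62 and 11.6 CPM in SD3, against 42.9, 29.9 and 22.9 CPM and 47.9, 48.5 and 31.4 CPM in CD7 (fold changes -2.28 and -2.15, edgeR adjusted p = 0.248 for both). Reads from sequence that the 3 genes share could have been lost or split in the counting.

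Enzymes that cut starch and sugars had values of the same sign. Amy-p, an amylase, had 92.1 and 88.6 CPM in SD3, against 722, 314 and 253 CPM in CD7, and its near-identical copy Amy-d had 75.4 and 92.4 CPM in SD3, against 492, 232 and 191 CPM in CD7 (fold changes -2.25 and -1.86). The maltases Mal-A3 and Mal-A4 had 5.53 and 6.84 CPM and 9.39 and 6.74 CPM in SD3, against 52.1, 54.1 and 30.0 CPM and 169, 128 and 37.1 CPM in CD7 (fold changes -2.87 and -3.79). LManIII, a lysosomal alpha-mannosidase, had 0.739 and 0.326 CPM in SD3, against 28.02, 36.0 and 22.5 CPM in CD7, a fold change of -5.78. Its neighbours LManV and LManVI, chosen after their values were seen, had fold changes of -4.57 and -4.99. None of these 7 genes overlapped between groups, and each missed the threshold in the 11-library fit (edgeR adjusted p = 0.306). In the 5-library fit the edgeR adjusted p was 0.0114 for Mal-A3, 0.0491 for Mal-A4, 0.000726 for LManIII and 0.0861 for Amy-p, against 0.108 for Amy-d, which was not called.

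The summed level of all 40 digestive enzymes was 3669 and 3655 CPM in SD3, against 7886, 4587 and 3907 CPM in CD7, and 1930, 1555 and 1402 CPM in the input of CD7. Both SD3 libraries lay below CD7, and the group means differed by less than the range of the CD7 libraries. CD7 replicate 1 was the highest for the amylases and for the sum, and its sum was more than 1.5 times those of the other CD7 libraries. Midgut tissue is not part of a head, so the members made in the midgut are also markers of material from outside it. Their part in the result was not tested. The list also holds LManIII, given above as a lysosomal enzyme.

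Men-b (FBgn0029155, 3R:27151662-27157603, plus strand), a malic enzyme, a source of NADPH, had 197 and 196 CPM in SD3, against 385, 437 and 339 CPM in CD7. The SD3 libraries were alike, all CD7 libraries were well above them, and the fold change was -0.98 (SE 0.13, edgeR adjusted p = 0.0668). It was the only one of the 12 tested genes of lipogenesis and NADPH supply to be called, and 3 of the 12 had an unadjusted p under 0.05, all lower. The others were acetyl-CoA synthase (AcCoAS), with 247 and 254 CPM in SD3, against 428, 559 and 347 CPM in CD7, and the second malic enzyme gene Men, with 276 and 329 CPM in SD3, against 453, 512 and 379 CPM in CD7 (fold changes -0.83 and -0.57, edgeR adjusted p = 0.308 for both). Desat1, Idh, Zw and FASN2, which also act in making fatty acids or NADPH, had SD3 libraries that overlapped those of CD7.

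CG1208 (3R:5831639-5838782, plus strand), a predicted sugar transporter of the major facilitator family, had 14.2 and 13.5 CPM in SD3, against 39.4, 38.8 and 27.4 CPM in CD7, a fold change of -1.35 (SE 0.20, edgeR adjusted p = 0.0992). It overlaps the gene glob3 on the same strand, so reads there could belong to either. CG4607, another predicted sugar transporter, had 64.0 and 55.1 CPM in SD3, against 122, 91.2 and 81.6 CPM in CD7, a fold change of -0.72 (edgeR adjusted p = 0.306). The trehalose transporter Tret1-1 had 494 and 655 CPM in SD3, against 520, 380 and 436 CPM in CD7, and overlapped. The genes that make and cut trehalose, the blood sugar of insects, did not separate the groups: Tps1 had 346 and 348 CPM in SD3, against 310, 386 and 335 CPM in CD7, and Treh had 511 and 575 CPM in SD3, against 616, 535 and 518 CPM in CD7.

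Outside the 6 calls, the genes of lowest p that were lower in SD3, averaging 5 CPM or more and without overlap between groups, were CG17167, Mst57Db, mt:ATPase6, Jon99Ci, RpL34b and Jon99Cii. Mst57Db, the gene of a male accessory gland peptide, had 15.04 and 13.5 CPM in SD3, against 33.0, 34.9 and 44.0 CPM in CD7, a fold change of -1.39 (edgeR adjusted p = 0.248). RpL34b, a protein of the large ribosomal subunit, had 149 and 131 CPM in SD3, against 203, 220 and 219 CPM in CD7, a fold change of -0.61 (edgeR adjusted p = 0.248). CG17167 had 12.8 and 13.9 CPM in SD3, against 30.1, 31.4 and 27.0 CPM in CD7, a fold change of -1.14 (edgeR adjusted p = 0.186). Each missed the threshold, and the 3 CD7 values of RpL34b and of CG17167 lay closer together than their distance to SD3.

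The 12 genes of lowest p in the other direction were CR12628, AdamTS-B, CG17572, CG40486, Swim, CAH5, CG14636, CHOp24, eya, CG17600, EMC3 and anchor, with fold changes between 0.48 for eya and 1.18 for CR12628, and none was called (edgeR adjusted p = 0.248 for the first 2 and 0.306 for the others). AdamTS-B, a secreted metalloprotease, had 103 and 110 CPM in SD3, against 70.2, 61.9 and 58.3 CPM in CD7. Swim, a secreted protein that binds Wingless, had 70.0 and 71.8 CPM in SD3, against 42.8, 44.0 and 43.4 CPM in CD7, so that the replicates of each group differed by less than 2 CPM and the groups by more than 25. The transcriptional co-activator gene eyes absent (eya) had 130 and 148 CPM in SD3, against 102, 95.2 and 103 CPM in CD7. CHOp24 and EMC3, which serve cargo transport and membrane protein insertion at the endoplasmic reticulum, had fold changes of 1.03 and 0.88. CAH5, a carbonic anhydrase, had 17.5 and 15.8 CPM in SD3, against 8.31, 7.88 and 8.97 CPM in CD7.

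**Figure D3:**
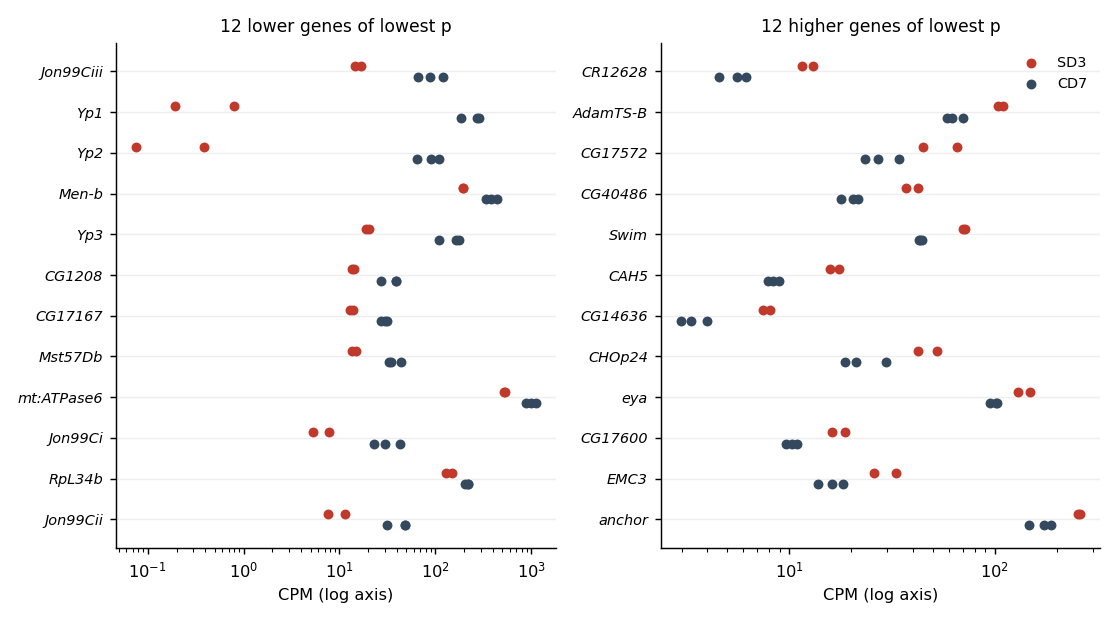
Level in CPM (horizontal log axis) in each library of SD3 and CD7, 1 point a library, for the 12 genes of lowest p in each direction. For each gene both SD3 points lie on one side of all 3 CD7 points, as the choice of genes asked. The log2 fold changes are near -9 for Yp1 and Yp2 and between -2.95 and -0.61 for the other 10 lower genes. Those of the 12 higher genes are between 0.48 and 1.18.

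Storage proteins and lipoproteins of the fat body were lower at an unadjusted p under 0.05 for 6 of the 8 tested members, beside 9.2% of all tested genes, none of them called in the 11-library fit and 3 called in the 5-library fit. Larval serum protein 2 (Lsp2) had 0.450 and 0.852 CPM in SD3, against 242, 378 and 124 CPM in CD7, a fold change of -8.53 (edgeR adjusted p = 0.306 over 11 libraries and 0.00120 over 5). Lsp1beta had 20.8 and 44.4 CPM in SD3, against 234, 401 and 181 CPM in CD7, a fold change of -3.06. In the CD>CD flies, also kept on the control diet, Lsp2 had 648 and 1.62 CPM, so the 2 replicates of this control group were themselves far apart. The lipoprotein gene apolpp, which carries lipids in the blood, had 2947 and 3342 CPM in SD3, against 5558, 7318 and 4579 CPM in CD7, a fold change of -0.89 (edgeR adjusted p = 0.336). Over all 10 members the summed level was 3338 and 4030 CPM in SD3, against 6493, 8853 and 5131 CPM in CD7, and 13780 to 19810 CPM in the input of CD7, so the sum was lower in the pull-down than in the lysate and lowest in SD3. The part of this sum in the yolk protein result was not tested.

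Genes of fat storage followed in part. Lsd-1, the perilipin that coats lipid droplets, had 66.8 and 70.8 CPM in SD3, against 109, 123 and 108 CPM in CD7, and the lipase brummer (bmm) had 38.5 and 37.9 CPM in SD3, against 58.7, 77.0 and 46.7 CPM in CD7 (fold changes -0.72 and -0.67, edgeR adjusted p = 0.306 and 0.308). Lsd-2, the other perilipin, had 623 and 671 CPM in SD3, against 636, 663 and 669 CPM in CD7, and the groups overlapped. Of the insulin and FOXO pathway 3 of 11 tested members had an unadjusted p under 0.05, beside 14.6% of all tested genes. Chico, the insulin receptor substrate, had a fold change of 0.41, and foxo and the insulin-binding ImpL2 had -0.26 and -0.52. Thor, the repressor of translation that FOXO switches on, had 212 and 204 CPM in SD3, against 113, 94.3 and 132 CPM in CD7, a fold change of 0.88 (edgeR adjusted p = 0.356 over 11 libraries and 0.0566 over 5).

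Regulators that respond to sugar did not move one way. Mondo, the sugar-sensing transcription factor, had 134 and 126 CPM in SD3, against 161, 201 and 167 CPM in CD7, a fold change of -0.43. Its targets cabut (cbt) and sugarbabe (sug) had 185 and 186 CPM and 65.0 and 44.5 CPM in SD3, against 124, 136 and 144 CPM and 27.7, 34.6 and 37.4 CPM in CD7 (fold changes 0.46 and 0.72). Fructose bisphosphatase (fbp) had a fold change of -0.66, and none of the 7 tested members was called (edgeR adjusted p of 0.306 or more). Of 13 enzymes of glycolysis 5 had an unadjusted p under 0.05, all higher, beside 5.42% of all tested genes in that direction. In 9 of the 13 both SD3 libraries lay above all CD7 libraries, beside 1799 of the 8760 genes averaging 5 CPM or more. Gapdh2 had 406 and 557 CPM in SD3, against 394, 321 and 360 CPM in CD7, and enolase (Eno) had 680 and 768 CPM in SD3, against 613, 556 and 585 CPM in CD7 (fold changes 0.43 and 0.31, edgeR adjusted p = 0.308 for both). The differences were small and no glycolytic gene was called in either fit.

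**Figure D4:**
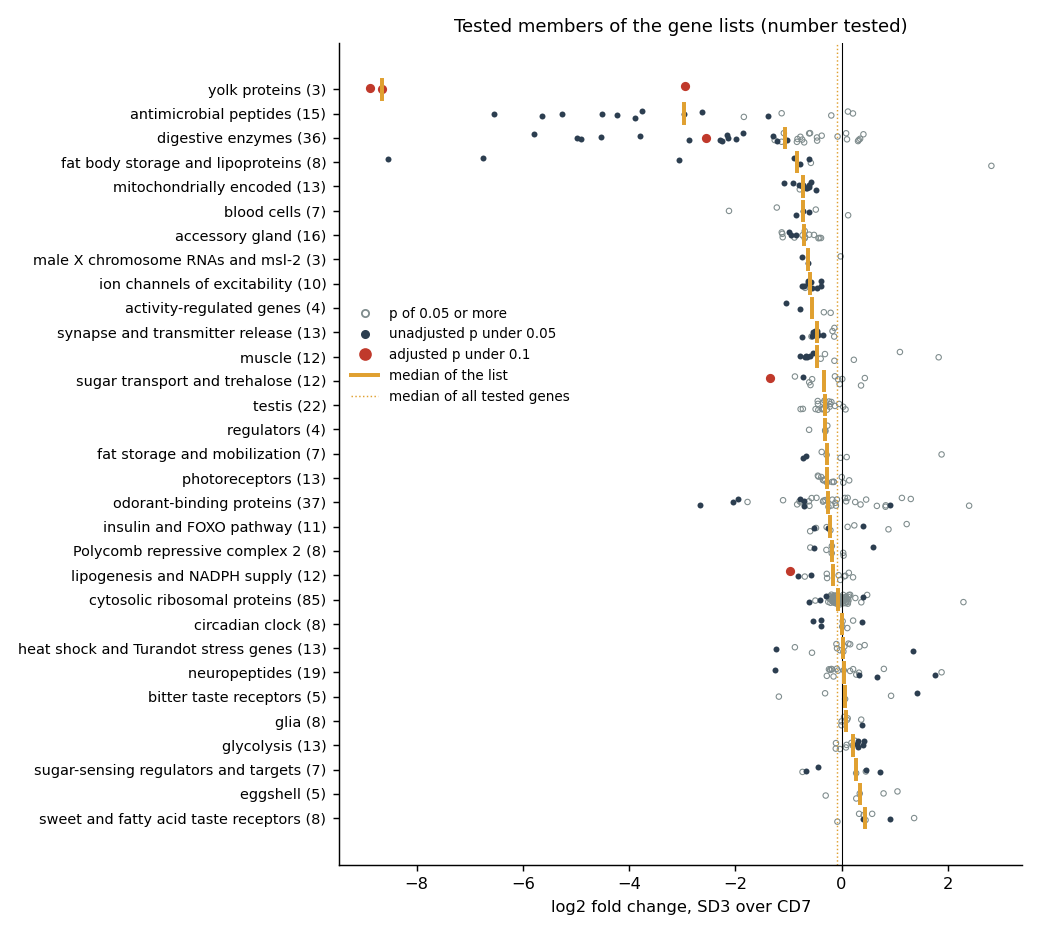
Log2 fold change of SD3 over CD7 for each tested member of the gene lists, 1 row a list and 1 point a gene, filled where the unadjusted p was under 0.05, with a bar at the median. Members of the ion channel, synapse, mitochondrially encoded and accessory gland lists all lie below 0, while the digestive enzymes and antimicrobial peptides spread to -5 and beyond.

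Most taste receptor genes of the sweet cells had somewhat higher levels in SD3, within the spread between libraries for most of them. Of the 8 tested sweet and fatty acid receptor genes 7 had fold changes above 0, none was called, and the median was 0.43. It was 0.21 without SD3 replicate 2, 0.72 without SD3 replicate 1 and 0.89 with unstranded counts. Gr5a and Gr64f had overlapping groups, as given above, and the fold change of Gr5a was 0.33 (SE 0.30). Gr64a, a receptor for sugars, had 2.54 and 4.08 CPM in SD3, against 3.38, 1.76 and 1.54 CPM in CD7, and Ir56d, a receptor of sweet cells for fatty acids, had 4.79 and 6.41 CPM in SD3, against 5.73, 3.00 and 3.88 CPM in CD7. Gr61a had 1.09 and 1.40 CPM in SD3, against 1.21, 1.26 and 1.49 CPM in CD7, and the fructose receptor Gr43a was at 0.526 CPM or below in all 5 libraries. Gr64b, Gr64c and Gr64d had no counts in these 5 libraries, and Gr64e had 1 count, in CD7 replicate 3. Reads that fit more than 1 gene or place are not in the gene counts, so these values do not show that the 4 genes were silent. The co-receptors Ir76b and Ir25a had 93.8 and 99.4 CPM and 48.1 and 80.7 CPM in SD3, against 81.7, 67.3 and 70.8 CPM and 46.6, 21.8 and 34.6 CPM in CD7, with no overlap and fold changes of 0.40 and 0.91 (edgeR adjusted p = 0.321 and 0.337).

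The summed level of the 12 sweet and fatty acid receptor genes was 161 and 221 CPM in SD3, against 148, 103 and 116 CPM in CD7, and 7.43 to 10.3 CPM in the input of CD7. It was highest in SD3 replicate 2. Most of the sum in SD3 and CD7 came from Ir76b and Ir25a, co-receptors that other sensory neurons also use, while Gr5a, Gr64f, Gr64a, Gr61a and Ir56d overlapped. Gr66a, which marks bitter neurons, had 1.90 and 3.16 CPM in SD3, against 1.26, 0.918 and 0.633 CPM in CD7, a fold change of 1.43 (edgeR adjusted p = 0.306), and of the 5 bitter receptors tested it alone had an unadjusted p under 0.05. Gr32a, another bitter receptor, had 0.804 and 1.15 CPM in SD3, against 1.86, 0.755 and 1.05 CPM in CD7, and overlapped.

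Of the transcription factors cad, GATAe, Ptx1 and nub, which are among the regulators that the study follows in the sweet cells, none was called. Ptx1 had 25.6 and 21.4 CPM in SD3, against 39.8, 30.0 and 37.9 CPM in CD7, and nub had 26.8 and 22.4 CPM in SD3, against 34.1, 28.6 and 28.4 CPM in CD7 (fold changes -0.61 and -0.30). GATAe had 27.9 and 20.3 CPM in SD3, against 30.0, 28.2 and 31.3 CPM in CD7, a fold change of -0.31. These 3 genes had both SD3 libraries below all CD7 libraries, as did 1996 of the 8760 genes averaging 5 CPM or more. For cad the groups overlapped, with 47.4 and 29.5 CPM in SD3, against 43.4, 35.8 and 59.6 CPM in CD7. Of the 8 members of Polycomb repressive complex 2, which places a silencing mark on histone H3, the methyltransferase gene E(z) had 27.1 and 32.1 CPM in SD3, against 29.1, 29.9 and 27.5 CPM in CD7. Caf1-55, a histone-binding subunit, had 27.0 and 31.6 CPM in SD3, against 18.5, 17.9 and 21.8 CPM in CD7, and jing had 88.4 and 74.4 CPM in SD3, against 95.7, 147 and 105 CPM in CD7 (fold changes 0.59 and -0.51, edgeR adjusted p = 0.308 for both). No member was called.

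Neuronal genes had small negative values that ran through whole lists. Of 10 tested ion channels of excitability 9 had an unadjusted p under 0.05, all lower, beside 9.2% of all tested genes. In all 10 both SD3 libraries lay below the 3 CD7 libraries, beside 1996 of the 8760 genes averaging 5 CPM or more. The median fold change of the 10 was -0.60, beside -0.08 over all tested genes. The potassium channel genes Sh and eag had 401 and 359 CPM and 85.8 and 74.9 CPM in SD3, against 486, 878 and 540 CPM and 111, 169 and 111 CPM in CD7 (fold changes -0.74 and -0.70). Of 13 tested genes of the synapse 9 had an unadjusted p under 0.05, all lower, beside the same 9.2%, with a median of -0.47. Complexin (cpx), which clamps vesicle fusion, had 1496 and 1306 CPM in SD3, against 1952, 2926 and 2174 CPM in CD7, and bruchpilot (brp), of the active zone, had 600 and 528 CPM in SD3, against 635, 1001 and 691 CPM in CD7 (fold changes -0.75 and -0.46). CD7 replicate 2 was the highest library for each of these 4 genes, and it was also the deepest of the 5. Without it the median was -0.35 for the channels and -0.28 for the synapse. Non-coding RNAs had medians of like size, -0.46 for long non-coding RNAs (834 of 1153 lower) and -0.52 for small nucleolar and small nuclear RNAs (168 of 201 lower). The long non-coding RNAs summed to 8895 and 8401 CPM in SD3, against 10660, 15880 and 10850 CPM in CD7, with CD7 replicate 2 again the highest, and the part of such a shift in the neuronal values was not tested. None of the 23 genes was called in either fit (edgeR adjusted p of 0.306 or more over 11 libraries).

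Genes switched on by neuronal activity had values of the same sign. Arc1, a gene of retrotransposon origin, had 91.8 and 115.2 CPM in SD3, against 186, 266 and 187 CPM in CD7, and the nuclear receptor gene Hr38 had 34.9 and 32.3 CPM in SD3, against 51.3, 71.3 and 50.9 CPM in CD7 (fold changes -1.04 and -0.78, edgeR adjusted p = 0.306 for both). Arc1 passed in the 5-library fit (edgeR adjusted p = 0.0861). Arc2 had 2.96 and 2.60 CPM in SD3, against 2.94, 2.77 and 3.91 CPM in CD7, and overlapped. Neuropeptide genes went both ways: CCHa2, a peptide that the fat body and gut release on feeding, had 26.4 and 25.4 CPM in SD3, against 56.3, 75.4 and 53.9 CPM in CD7, and CNMa had 6.20 and 5.18 CPM in SD3, against 1.75, 1.39 and 1.90 CPM in CD7. Their fold changes were -1.26 and 1.76, with an edgeR adjusted p of 0.306 and 0.316 over 11 libraries and of 0.0357 and 0.0539 over 5. Pdf, the peptide of clock neurons, had 6.11 and 7.77 CPM in SD3, against 4.88, 3.65 and 4.54 CPM in CD7, a fold change of 0.67.

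Circadian clock genes were read as a guide to the hour of collection. The cycling genes per and vri had 44.0 and 38.8 CPM and 188 and 169 CPM in SD3, against 36.5, 47.7 and 38.8 CPM and 163, 166 and 168 CPM in CD7. Clk had 98.6 and 75.2 CPM in SD3, against 114, 153 and 111 CPM in CD7, and the photoreceptor of the clock, cry, had 244 and 315 CPM in SD3, against 245, 183 and 215 CPM in CD7 (fold changes -0.54 and 0.38, edgeR adjusted p = 0.306 and 0.308). None of the 8 genes was called, but 3 (Clk, Pdp1 and cwo) were lower and 1 (cry) higher at an unadjusted p under 0.05, beside 14.6% of all tested genes in either direction. The core negative regulator per overlapped between groups.

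Antimicrobial peptides made up the list with the lowest median outside the yolk proteins. Of 15 tested members 10 had an unadjusted p under 0.05, all lower, beside 9.2% of all tested genes, with a median of -2.97 that stayed at -2.97 with AttD, at 0 counts in SD3, set at its bound, and that was -1.33 over the members with at least 10 counts in each library. Drs, the drosomycin gene, was also listed but was not matched, so these counts and the median do not cover it. The summed level of the 16 matched members, most of it from BomS1, BomS2 and BomS3, overlapped, with 336 and 366 CPM in SD3, against 441, 303 and 354 CPM in CD7. Drosocin (Dro) had 1.38 and 1.85 CPM in SD3, against 20.7, 12.2 and 5.37 CPM in CD7, a fold change of -2.97 (edgeR adjusted p = 0.306 over 11 libraries and 0.0825 over 5). Metchnikowin (Mtk) had 0.547 and 0.451 CPM in SD3, against 10.9, 8.02 and 1.24 CPM in CD7, and attacin C (AttC) had 0.739 and 0.902 CPM in SD3, against 29.9, 23.8 and 2.53 CPM in CD7 (fold changes -3.75 and -4.50). The CD7 libraries did not agree, since replicate 3 was the lowest for all 3 genes and lay nearest to SD3. Among stress genes TotA, a humoral stress peptide, had 10.5 and 15.5 CPM in SD3, against 35.1, 29.6 and 27.1 CPM in CD7, and the small heat shock gene Hsp23 had 38.8 and 36.1 CPM in SD3, against 16.3, 11.2 and 17.0 CPM in CD7 (fold changes -1.23 and 1.34). Both passed in the 5-library fit (edgeR adjusted p = 0.0870 and 0.0463). Hsp68, a heat-inducible chaperone gene, had 7.71 and 9.17 CPM in SD3, against 7.95, 7.49 and 7.73 CPM in CD7, and overlapped.

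Odorant-binding proteins, small proteins of the fluid around sensory neurons made mostly by support cells, had 37 tested members, of which 6 were lower and 1 higher at an unadjusted p under 0.05, beside 9.2% and 5.42% of all tested genes. The summed level of the 52 genes ran the other way, with 3526 and 3431 CPM in SD3, against 2817, 1825 and 2934 CPM in CD7. Obp44a, the higher one, had 1809 and 1786 CPM in SD3, against 1208, 644 and 1016 CPM in CD7, a fold change of 0.91. Obp56a and Obp99b had 5.30 and 6.16 CPM and 17.8 and 34.9 CPM in SD3, against 34.1, 17.0 and 19.9 CPM and 112, 116 and 78.1 CPM in CD7 (fold changes -2.04 and -1.95). The groups did not overlap for any of the 3 genes, and none of the list was called over 11 libraries (edgeR adjusted p = 0.306 for Obp44a and Obp56a and 0.321 for Obp99b). In the 5-library fit Obp56a, Obp99b and Obp56h were called, each lower.

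All 13 protein-coding genes of the mitochondrial genome were lower in both SD3 libraries than in any CD7 library, beside 1996 of the 8760 genes averaging 5 CPM or more. Of the 13, 12 had an unadjusted p under 0.05, beside 9.2% of all tested genes in that direction, and the median fold change was -0.72. mt:ATPase6, a subunit of ATP synthase, had 536 and 523 CPM in SD3, against 876, 1114 and 996 CPM in CD7, a fold change of -0.91 (edgeR adjusted p = 0.248 over 11 libraries and 0.0581 over 5). The cytochrome genes mt:Cyt-b and mt:CoI had 1138 and 1142 CPM and 4322 and 3929 CPM in SD3, against 1616, 1812 and 1806 CPM and 5640, 6347 and 6410 CPM in CD7 (fold changes -0.61 and -0.57). These RNAs are not translated by the tagged ribosomes and come from 1 genome, so they share their source. The genes of cytosolic ribosomal proteins had a median of -0.07, close to that of all genes, with 3 of 85 lower and 1 higher at an unadjusted p under 0.05. RpL3, which the transgene also carries, had 967 and 876 CPM in SD3, against 868, 1116 and 852 CPM in CD7, and the groups overlapped. Protein-coding genes took 87.3% and 89.5% of gene counts in SD3, against 86.5%, 90.9% and 83.5% in CD7.

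Markers of other tissues differed between groups to unlike degrees. Of 12 tested muscle genes 6 had an unadjusted p under 0.05, all lower, beside 9.2% of all tested genes (the same share stands beside the counts of the accessory gland and blood cells), and the summed level of the 12 matched members was 3971 and 3278 CPM in SD3, against 4510, 6433 and 5033 CPM in CD7. Myosin heavy chain (Mhc) had 589 and 489 CPM in SD3, against 708, 1030 and 826 CPM in CD7, a fold change of -0.67. The accessory gland peptides had fold changes below 0 in 16 of 16, 3 of them at an unadjusted p under 0.05, and summed to 178 and 143 CPM in SD3, against 231, 302 and 250 CPM in CD7. Their median was -0.71. With CD>CD as the control 0 of the 16 were below 0 and the median was 0.70, so this direction rests on CD7. Neither the accessory gland nor the testis lies in the head. The 22 testis genes summed to 752 and 513 CPM in SD3, against 499, 908 and 738 CPM in CD7, and the groups overlapped. Blood cell genes summed to 209 and 250.1 CPM in SD3, against 290, 386 and 249.7 CPM in CD7, and the 3 of 7 at an unadjusted p under 0.05 (PPO2, srp and Hml) were lower.

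Glia and photoreceptors overlapped between groups. The 8 glial genes summed to 2952 and 3454 CPM in SD3, against 3102, 2692 and 2720 CPM in CD7, and the glial identity gene repo had 127 and 128 CPM in SD3, against 133, 123 and 128 CPM in CD7. The 13 photoreceptor genes summed to 11510 and 14160 CPM in SD3, against 14250, 19920 and 12180 CPM in CD7, and none had an unadjusted p under 0.05. The libraries of both groups thus held RNA of the same other tissues, in amounts that overlapped for glia, photoreceptors, testis and blood cells and not for fat body, digestive enzymes, muscle and the accessory gland. Their part in the gene results was not tested.

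**Figure D5:**
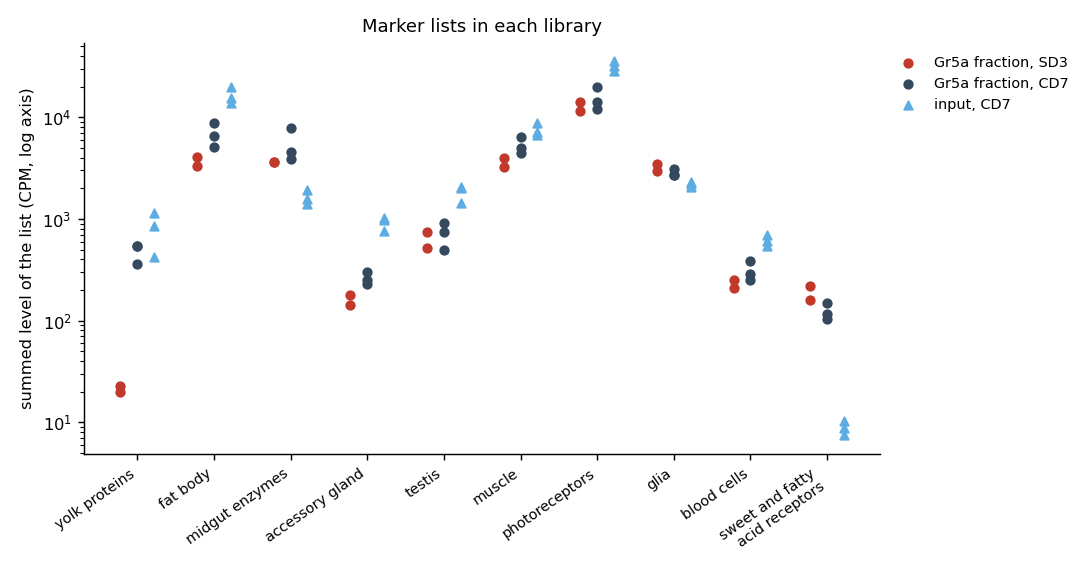
Summed level in CPM (log axis) of each marker list in each library of SD3, CD7 and the input of CD7, 1 point a library. The yolk proteins separate SD3 from CD7 most, with 19.8 and 22.7 CPM in SD3 against at least 364 CPM in CD7, and the sweet receptor list lies furthest above the input in both groups.

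Levels after 7 days of the sugar diet were compared with those after 3. The SD7 and SD3 comparisons share the CD7 libraries, so the levels are set side by side here, and the difference was tested directly as SD3 against SD7. No gene was called in that test (0% of 13758 tested, edgeR over 11 libraries), while 2369 genes or 17.2% had an unadjusted p under 0.05. DESeq2 called 776, and edgeR on the 4 libraries alone called 239. Of the 6 genes called against CD7, Jon99Ciii had 16.9 and 14.4 CPM in SD3 and 24.97 and 15.6 CPM in SD7, and Men-b had 197 and 196 CPM in SD3 and 247 and 210 CPM in SD7, both below all CD7 libraries. CG1208 had 14.2 and 13.5 CPM in SD3 and 18.5 and 14.1 CPM in SD7. Yp3 had 18.9 and 20.1 CPM in SD3 and 61.2 and 22.3 CPM in SD7, with SD7 replicate 2 near SD3.

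Against the CD>CD flies, which stayed on the control diet to day 19, SD3 gave 3176 calls or 23.1% of the 13758 genes, 1931 of them lower. The genes that passed against both controls were fewer: Jon99Ciii (edgeR adjusted p = 0.0120 against CD>CD) and Men-b (0.0200) did, while Yp1, Yp2, Yp3 and CG1208 did not (0.175, 0.160, 0.178 and 0.132). Jon99Ciii had 16.9 and 14.4 CPM in SD3, against 42.6 and 50.3 CPM in CD>CD, and Men-b had 197 and 196 CPM in SD3, against 317 and 290 CPM in CD>CD. The lower level of these 2 genes after 3 days of sugar was seen against 5 libraries of 2 control groups, which differ in age, in comparisons that share the SD3 libraries. Of the 83 genes whose fold change was taken, 11 had the other sign against CD>CD, among them Gr5a, Ir76b, Gr66a, Ptx1, nub, GATAe, CNMa and Mst57Db, so the direction given for these rests on CD7. The CD>CD replicates were far apart at Lsp2, as given above, and at CNMa, with 1.64 CPM in replicate 1 and 19.9 CPM in replicate 2. At both genes replicate 2 was nearer to SD7 (4.88 and 0.788 CPM for Lsp2, 11.6 and 14.5 CPM for CNMa) than to CD7. The summed digestive enzymes did not run this way. Replicate 2, with 4766 CPM, lay within the CD7 libraries, and replicate 1, with 2034 CPM, between the SD7 libraries (3119 and 1250 CPM). Whether the label of replicate 2 holds is in doubt by those 2 genes, and the 3176 calls, the calls against both controls and the 11 signs rest on that label.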

How the data were processed

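The authors aligned reads to the Drosophila genome (BDGP6, the dm6 assembly) and deposited raw counts per gene, unnormalized and without pooling of replicates. The submitters' processing notes name STAR, HTSeq, SAMtools 1.4 and DESeq2 1.18.0. The deposited counts hold an unstranded column and 1 for each strand, and the same-strand column was used, with 96.3% to 96.8% of stranded gene counts in 4 of the 5 libraries. CD7 replicate 1 has a single column, taken as same-strand: its median absolute log2 ratio to the same-strand columns of the other CD7 libraries was 0.59 and 0.35, against 4.49 and 4.90 to their unstranded columns, at 498 and 306 genes where these differ most. Rows that name no gene were left out of totals, and reads that map to several places (11.6% to 22.9% of reads where given) are not in the gene counts.

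Groups followed the labels. Of 17489 genes, 17215 had a symbol. The 8 listed symbols FASN1, InR, VAChT, para, Nplp2, wupA, PPO1 and Drs were not matched and not analysed here. Statements on their lists do not cover them, and whether rows without a symbol hold these genes was not tested. Another regulator that the study follows was not analysed here either. The test was that of edgeR 4.0.16, run in R 4.3.3 (quasi-likelihood F test, filterByExpr, TMM, prior count 0.125, Benjamini-Hochberg adjustment over all genes tested), over the 11 libraries of the Gr5a fraction with group means only. A call was an adjusted p under 0.1, the threshold of the study. CPM used TMM factors, except sums over lists, which used gene count totals. In simulated counts, 200 genes were changed by 1.5 (log2). Of these, 78.5% were recovered with 7.65% of calls false (11 libraries, 13447 genes), and 75.5% with 6.21% false (5 libraries, 13135 genes). The share recovered at the spread of the real libraries was not tested. There LManIII and Lsp2, with fold changes of -5.78 and -8.53, were called over 5 libraries. Neither was called over 11 (edgeR adjusted p = 0.306 for both).

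Named genes were all calls, the 12 of lowest p in each direction averaging 5 CPM or more and without overlap, all sweet receptors, regulators and yolk proteins, and up to 4 tested members of lowest p of each other list. Genes given outside this rule were chosen after their values were seen. The comparison, the lists and the tests were chosen with earlier results of these data known. Alternatives were the unstranded column, DESeq2 size factors, the DESeq2 1.42.0 Wald test, other count filters, other sets of libraries, the replicate number as a block, and each library left out.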

Additional observations from a re-analysis of the deposited data

Results flagged for a closer look

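Of the genes named, 9 had both SD3 libraries on one side of all 3 CD7 libraries and both SD7 libraries on the other side. The test of SD3 against SD7 called none of them (edgeR adjusted p = 0.195 for CR12628 and 0.213 for the other 8). The log2 difference of SD3 minus SD7 was 1.89 for the pseudogene CR12628, 1.36 for CAH5, 0.88 for anchor, 0.68 for Gapdh2 and 0.48 for Eno, which were above CD7 in SD3 and below it in SD7. It was -0.78 for RpL34b, -1.04 for roX2, -0.75 for mt:Cyt-b and -0.68 for mt:CoI, which were below CD7 in SD3 and above it in SD7. Among the 8760 genes with a mean of at least 5 CPM, 91 had the first pattern and 102 the second.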

How the results depend on the processing

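The 6 calls became 0 with unstranded counts (2357 genes at an unadjusted p under 0.05), 0 without SD>CD, 3 with at least 10 counts in each library, 478 by DESeq2, 157 on the 5 libraries alone, 3176 with CD>CD as the control and, in an alternative chosen after seeing the data, 76 without CD>CD. They ranged between 0 and 3 when a library was left out. DESeq2 size factors gave 5. The 2011 genes at an unadjusted p under 0.05 became 4360 with CD>CD as the control, and 617 to 2299 when a library was left out. The replicate numbers only name the libraries (correlations of deviations of -0.22 and -0.10 for numbers 1 and 2). With the number as a replicate block and without SD>CD, 5 genes were called, of which Jon99Ciii and Yp2 (edgeR adjusted p = 0.0464 for both) are among the 6, while Yp1, Yp3, Men-b and CG1208 were not called (0.153, 0.168, 0.324 and 0.216), and 798 had an unadjusted p under 0.05. For SD3 against SD7, the 0 calls became 776 by DESeq2 and 239 on the 4 libraries alone, both chosen after seeing the data. The 157 calls of the 5-library fit ranged between 8 and 536 when a library was left out, with 10 without SD3 replicate 1, 8 without SD3 replicate 2, 536 without CD7 replicate 1 and 294 without CD7 replicate 3. The cause of these differences was not tested.

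The 83 fold changes taken kept their sign under every alternative that gave a value, except CD>CD as the control. Many of the 83 genes were named for a low p or for no overlap between groups, which favours a kept sign. Genes outside the 83 did change sign. Without SD3 replicate 2, 3 of the 4 regulators were lower, against 4 as reported. Of the 3 genes listed as male X chromosome RNAs and msl-2, 2 were lower there, against 3 as reported. With at least 10 counts in each library, Yp1 and Yp2 gave none. Against CD>CD 11 changed sign: Mst57Db 0.56, foxo 0.34, ImpL2 0.025, sug -0.022, Gr5a -0.24, Ir76b -0.27, Gr66a -0.089, Ptx1 0.44, nub 1.06, GATAe 1.40 and CNMa -0.93. Of the list medians given above, those of the digestive enzymes (0.02), sweet receptors (-0.04) and accessory gland (0.70) changed sign against CD>CD. That of the ribosomal proteins became 0.02 without SD3 replicate 2 and 0.01 with no filter. The median of the odorant-binding proteins, -0.25, became 0.72 against CD>CD and 0.016 under the replicate block. Among other lists, the medians of muscle, testis and the regulators, -0.46, -0.31 and -0.31, became 0.08, 0.78 and 1.17 against CD>CD. No scaling moved the median of the 8760 genes averaging 5 CPM or more by over 0.1 on the log2 scale. It did change sign, for example from -0.02 to 0.07 with no filter on low counts.

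SD3 has 2 libraries, fewer gene counts in each than any CD7 library, and no replicate by which a deviating library can be told. The 2 series of deposited identifiers and the days on diet run with the groups and cannot be told apart from the diet.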
